A study of Mus musculus with 9 samples.

Results

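The genes described here are 10 well-known transcriptional targets of the tumour suppressor p53, taken by name from the deposited count table: Mdm2, Ccng1, Zmat3, Bax, Bbc3, Phlda3, Sesn1, Sesn2, Trp53inp1 and Gdf15. Each of the 10 symbols stood on a single line of the 54697 lines of the table, and all 10 passed the filter on low counts. The samples were cultures of C2C12, an established line of mouse myoblasts labelled wild type, profiled by mRNA sequencing in 3 groups of 3 libraries. The groups were cells given pentanoate at 750 µM for 48 h, cells given butyrate at 750 µM for 48 h, and control cells, for which the labels name no vehicle. All cells came from this single line and were sampled on day 2. Pentanoate is a straight-chain fatty acid anion that is longer than butyrate by a single carbon in the chain. Whether the replicates of a group were grown as separate cultures is not stated, so the p-values measure the spread between these libraries, which may be technical.

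The p53 protein (gene Trp53) is a transcription factor that is held low in unstressed cells by the ubiquitin ligase Mdm2 and accumulates after DNA damage and other stresses. It binds DNA as a tetramer at pairs of a short half-site, and its targets feed back on p53, stop the cell cycle, promote apoptosis or adjust growth and metabolism. In cultured myoblasts, p53 and its target Cdkn1a are known to take part in the choice between cycling, death and differentiation. Several of the 10 genes also answer to other factors: Sesn2 and Gdf15 are targets of ATF4 in the integrated stress response, and Sesn1 is a target of FoxO factors.

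The start regions of the 10 genes were searched for the p53 consensus half-site, a pattern of 10 bases that is its own reverse complement, so that a match counts for both strands. RefSeq windows from 250 bases before to 50 bases after a transcription start (build GRCm38.p6) were at hand for 8 of the 10 genes, all but Trp53inp1 and Zmat3, in 12 windows. A perfect half-site stood in 1 window each of 4 genes, Mdm2, Ccng1, Bax and Sesn1. Among all genes with such windows, 9.55% had a half-site in any of them, and 8.36% of all 32851 windows held it. The 250 bases before the start are printed for these 4 genes. Among them, Mdm2 and Ccng1 passed the test for butyrate against control described below, and Bax and Sesn1 did not. Among the genes whose windows held no perfect half-site, Gdf15 and Sesn2 passed it, and Bbc3 and Phlda3 did not. Sites with a mismatch were not searched for, so these windows may hold imperfect half-sites. A relation of the half-site to the response was not tested. Capitals mark the half-site.
Mdm2, chr10:117710759-117711008, minus strand: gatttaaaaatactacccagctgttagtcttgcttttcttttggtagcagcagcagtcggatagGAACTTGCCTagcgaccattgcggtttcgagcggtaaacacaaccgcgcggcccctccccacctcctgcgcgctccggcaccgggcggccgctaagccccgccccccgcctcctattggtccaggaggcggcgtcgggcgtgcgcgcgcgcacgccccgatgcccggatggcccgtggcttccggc
Ccng1, chr11:40755287-40755536, minus strand: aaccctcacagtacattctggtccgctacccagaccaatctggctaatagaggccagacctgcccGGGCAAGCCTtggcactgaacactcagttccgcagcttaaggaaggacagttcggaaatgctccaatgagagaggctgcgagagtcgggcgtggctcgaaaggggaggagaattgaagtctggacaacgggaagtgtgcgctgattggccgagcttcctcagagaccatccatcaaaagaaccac
Bax, chr7:45466899-45467148, minus strand: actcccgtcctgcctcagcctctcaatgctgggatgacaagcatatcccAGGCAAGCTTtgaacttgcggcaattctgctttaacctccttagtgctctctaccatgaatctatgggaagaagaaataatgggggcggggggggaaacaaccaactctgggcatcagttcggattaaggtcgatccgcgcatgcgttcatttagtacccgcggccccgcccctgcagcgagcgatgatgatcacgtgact
Sesn1, chr10:41887189-41887438, plus strand: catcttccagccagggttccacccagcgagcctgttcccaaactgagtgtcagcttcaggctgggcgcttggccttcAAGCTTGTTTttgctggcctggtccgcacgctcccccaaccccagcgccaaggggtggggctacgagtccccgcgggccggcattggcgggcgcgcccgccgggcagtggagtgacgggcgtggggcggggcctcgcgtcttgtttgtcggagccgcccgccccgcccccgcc
The half-site began 186 bases before the start in Mdm2, 185 in Ccng1, 201 in Bax and 173 before the downstream of the pair of Sesn1 starts in the table. A match of letters is a description and not evidence of binding, and for Mdm2 the best-known p53 elements lie in the first intron, outside this window.

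The libraries held 15829262 to 19305981 counts each, and 14066 genes were tested. All 8 myoblast markers, Myod1 and Des among them, had at least 1 CPM (counts scaled to a common library size) on average in every group, with summed levels of 7100 to 7750 CPM with pentanoate, 6980 to 7930 with butyrate and 7700 to 8800 in control. Vim made up most of these sums. With butyrate 2 of the 8 fell and 1 rose, where 4.95% of all genes were lower and 6.43% higher. Myod1, the myogenic master regulator, averaged 45.5 ± 10.1 CPM with butyrate and 84.3 ± 13.1 CPM in control (SD, n = 3 each; −0.89, adjusted p = 0.00828), and at 80.1 ± 9.84 CPM it was higher with pentanoate than with butyrate (0.82, adjusted p = 0.0304). The call against butyrate was lost in 6 of the 9 fits that left out a library (0.0518 to 0.134), and that against control in none. With butyrate Chrna1 stood at −0.97 (adjusted p = 0.0155) and Myf5 at 0.57 (0.0279), calls lost in 3 and 5 of the 9 such fits. The 6 blood cell markers summed to 1.60 to 1.93 CPM with pentanoate, 2.35 to 3.50 with butyrate and 1.49 to 1.92 in control, and the 7 neuronal markers to 5.12 to 6.45, 6.23 to 9.06 and 3.56 to 4.95 CPM in the same 3 groups. No count at all was found for Rbfox3 and Snap25 among the neuronal markers. The 7 epithelial and endothelial markers summed to 0.937 to 1.66, 1.93 to 2.41 and 0.972 to 1.75 CPM, with Epcam and Kdr at 0, and the 5 adipocyte markers to 33.7 to 76.7, 31.7 to 62.1 and 26.1 to 78.5 CPM. With butyrate the neuronal marker Tubb3 stood at 0.94 (adjusted p = 0.016) and the adipocyte marker Fabp4, named after its values were seen, at 2.71 (0.0184), with 1.08 ± 0.599 CPM against 0.16 ± 0.0432 CPM in control. Both calls were lost without butyrate 3 (0.0659 and 0.0784), that of Tubb3 also without butyrate 2 (0.0765) and that of Fabp4 without control 1 (0.0597). Fabp4 was the only 1 called of 3 adipocyte markers tested. Pparg stood at −0.05 (adjusted p = 0.919) and Lpl at −0.1 (0.931) with butyrate. Of the 2 neuronal markers tested, Gap43 was not called (1.05, adjusted p = 0.229). The markers called with butyrate differed in the same libraries as the p53 targets, and the other tested markers were not called. The part of these markers, or that of other cells, in the results was not tested. Control library 3 stood apart from the other libraries, with 3.95% of its counts from the mitochondrial chromosome against 1.79% to 2.32% in the other 8. In bulk RNA a change in the number of cells that express a gene and a change in RNA per cell cannot be told apart.

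Per base of transcript, the 10 genes covered a wide range of levels. On the TPM scale (counts divided by the gene lengths of the table and scaled to a common total), Phlda3 was highest, at 488 ± 42.5 with pentanoate, 504 ± 56.6 with butyrate and 402 ± 105 in control (SD, n = 3 each). Bbc3 was lowest, at 12.9 ± 0.498, 10.7 ± 1.87 and 12.2 ± 4.17 TPM. In control cells the order was Phlda3, Ccng1 (175 ± 46.7), Bax (163 ± 37.8), Mdm2 (56.1 ± 0.361), Sesn1 (53.7 ± 9.14), Zmat3 (26.1 ± 2.16), Sesn2 (19.7 ± 1.53), Trp53inp1 (19.7 ± 6.47), Gdf15 (17.2 ± 4.81) and Bbc3. Among neighbours in this order, the ranges of the 3 libraries overlapped between Ccng1 and Bax, between Mdm2 and Sesn1, and along the stretch from Sesn2 through Trp53inp1 and Gdf15 to Bbc3. With butyrate, Gdf15 averaged 43.8 ± 10.6 TPM and stood above Sesn1 (38.2 ± 5.75), with overlapping ranges, and Zmat3 (32.8 ± 4.12), Sesn2 (29.4 ± 3.63) and Trp53inp1 (20.1 ± 3.59).

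**Figure D1:**
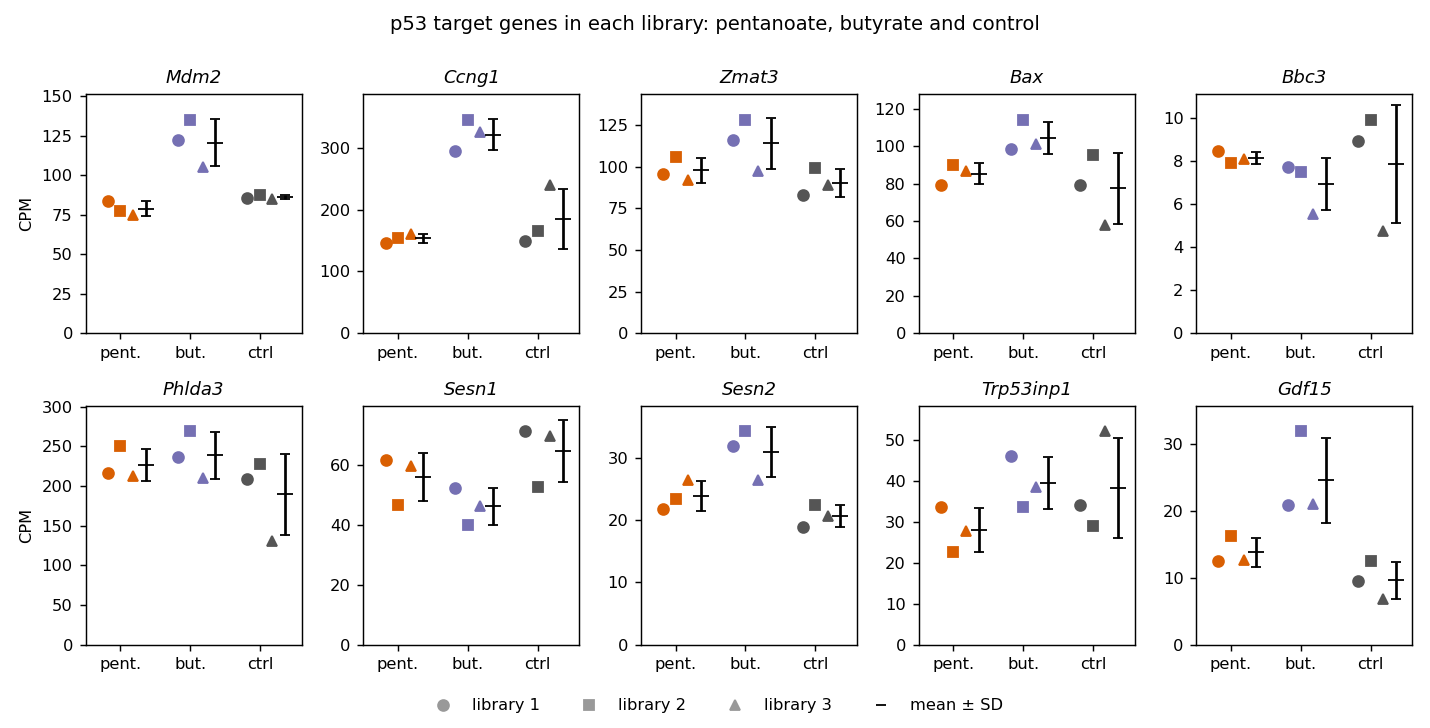
CPM (vertical axis, from 0) of each of the 10 p53 targets in the 3 pentanoate, 3 butyrate and 3 control libraries. Symbols mark the library number, and bars the mean and SD of a group. The butyrate libraries of Ccng1, Mdm2, Sesn2, Gdf15 and Bax lie above all control libraries and those of Sesn1 below, while control library 3 is the lowest control for Bax, Bbc3, Gdf15 and Phlda3 and the highest for Ccng1 and Trp53inp1.

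With butyrate 4 of the 10 targets were higher than in control (Gdf15, Ccng1, Sesn2 and Mdm2) and none was lower at an adjusted p under 0.05. Over all genes tested, 11.4% were called in this comparison, 6.43% higher and 4.95% lower. The median log2 change of the 10 was 0.38, against −0.02 over all genes tested. The 10 genes, and the lists below, were chosen with earlier results of these data known. Their counts and medians are therefore not independent of the data. With pentanoate none of the 10 was called against control by edgeR, where 0.803% of all genes were called, 0.782% higher and 0.0213% lower. The Wald test of DESeq2 also called none, where it called 2.58% of all genes. Of the 10, 1 (Gdf15) had an unadjusted p under 0.05. Of all 14066 genes tested, 1095 were higher and 837 lower at such a p. With butyrate these counts over all genes were 1752 and 1903, and between the acids 1311 and 1146. For pentanoate against control the median log2 change of the 10 was 0.08, against −0.01 over all genes. Between the acids, Ccng1 and Mdm2 were lower with pentanoate than with butyrate, where 3.42% of all genes were called, 1.81% higher and 1.61% lower, and the median of the 10 was −0.33, against 0 over all genes. The acids were compared as 1 pair at the same dose and time, and for the other 8 genes a p that misses the threshold does not show that they act alike. The comparisons with control share the control libraries, and that between the acids shares the treated libraries of each, so their values are not independent.

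**Figure D2:**
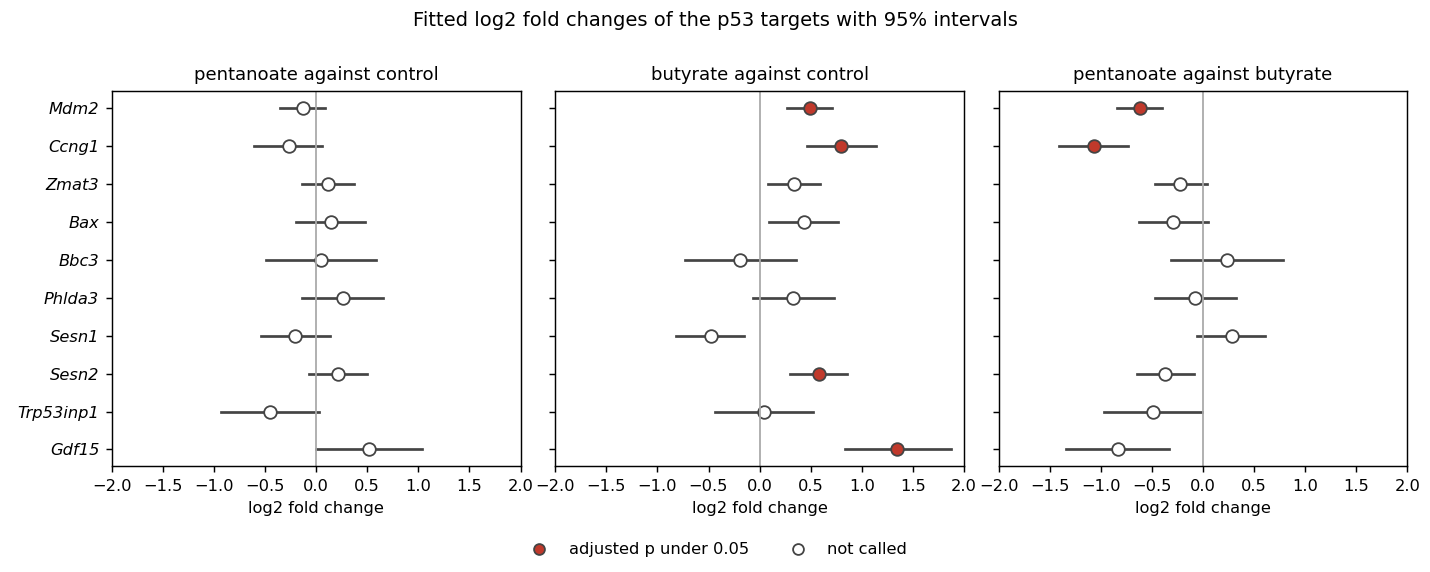
Fitted log2 fold changes (horizontal axis) of the 10 targets with 95% intervals for the 3 comparisons, the first-named group over the second. Filled points had an adjusted p under 0.05: none with pentanoate, 4 with butyrate (Mdm2, Ccng1, Sesn2, Gdf15) and 2 between the acids (Mdm2, Ccng1).

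Mdm2 and Ccng1 act in feedback on p53 itself. Mdm2 (ENSMUSG00000020184, chromosome 10, 117688875 to 117710758, minus strand), the ubiquitin ligase that marks p53 for degradation (coordinates here and for the other genes are those of the deposited table, on GRCm38), had 83.9, 77.4 and 74.8 CPM in pentanoate libraries 1 to 3, 122, 135 and 105 CPM in the butyrate libraries and 85.4, 87.6 and 85.1 CPM in control. All butyrate libraries were above all others, and all pentanoate libraries were below all controls, by a small margin. With butyrate Mdm2 rose 1.40-fold (95% interval 1.20 to 1.64), a log2 change of 0.49 with an SE of 0.10 and an adjusted p of 0.0108. The call was lost without butyrate library 2 (adjusted p = 0.0534). Pentanoate cells stood at −0.13 from control (95% interval −0.35 to 0.09, adjusted p = 0.582). Against butyrate, pentanoate cells had less Mdm2, with a log2 change of −0.62 (SE 0.10, adjusted p = 0.0108), and this call was lost without pentanoate library 3 (0.0503) or butyrate library 2 (0.052).

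Ccng1 (ENSMUSG00000020326, chromosome 11, 40748552 to 40755311, minus strand) encodes cyclin G1, an atypical cyclin that brings a phosphatase to Mdm2. It had 146, 154 and 160 CPM in the pentanoate libraries, 294, 345 and 325 CPM with butyrate and 149, 166 and 239 CPM in control. The butyrate libraries lay above every other library, and control 3 lay above the other controls and all pentanoate libraries. Ccng1 rose by 0.80 with butyrate (SE 0.15, adjusted p = 0.0081), 1.74-fold (95% interval 1.37 to 2.20). Within the replicate numbers 1 to 3 the difference of butyrate from control was 0.98, 1.05 and 0.44 log2 CPM, the smallest being that against control 3. Without control 3 the log2 change was 1.04, and the call held in all 18 alternatives computed (adjusted p 2.56e-05 to 0.0335). Against butyrate, the pentanoate cells had less Ccng1, with a log2 change of −1.07 (SE 0.15, adjusted p = 0.0073) and a ratio of 0.476 (95% interval 0.376 to 0.603). The differences within the 3 numbers were −1.02, −1.16 and −1.02 log2 CPM. For pentanoate against control the estimate was −0.27 (95% interval −0.61 to 0.06, adjusted p = 0.455).

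Gdf15 (ENSMUSG00000038508, chromosome 8, 70629393 to 70632456, minus strand), a secreted stress cytokine of the TGF-beta superfamily, showed the largest change of the 10. Its levels were 12.5, 16.3 and 12.7 CPM with pentanoate, 20.9, 32 and 21 CPM with butyrate and 9.49, 12.5 and 6.87 CPM in control. All butyrate libraries were above all pentanoate libraries, the lowest pentanoate library was level with the highest control after rounding, and each pentanoate library was above the control library of its number, by 0.40, 0.38 and 0.88 log2 CPM. With butyrate Gdf15 rose by 1.35 (SE 0.23, adjusted p = 0.0047), 2.56-fold (95% interval 1.79 to 3.66), a call kept in all 18 alternatives (adjusted p 1.01e-06 to 0.0228). For pentanoate against control the estimate was 0.52 (95% interval 0 to 1.04, adjusted p = 0.362). For pentanoate against butyrate the Gdf15 estimate was −0.83 (95% interval −1.34 to −0.33), which did not pass the test (adjusted p = 0.0755). It passed with the replicate number as a block (−0.82, adjusted p = 0.00332) and by DESeq2 (0.0112), with no filter (0.0377), with the 2 groups alone (0.0229), and without control 2 (0.0471) or control 3 (0.0191), libraries that enter this comparison only through the shared estimates of spread and scale.

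The 2 sestrins, stress-induced proteins that restrain the growth kinase complex mTORC1, had estimates of opposite sign with butyrate, of which only that of Sesn2 passed the test. Sesn2 (ENSMUSG00000028893, chromosome 4, 132492032 to 132510501, minus strand), also known as a leucine sensor, had 21.9, 23.4 and 26.6 CPM with pentanoate, 32, 34.4 and 26.6 CPM with butyrate and 19, 22.5 and 20.7 CPM in control. Every butyrate library was above every control library, and butyrate 3 was level with pentanoate 3. Sesn2 rose by 0.58 with butyrate (SE 0.13, adjusted p = 0.0156), 1.5-fold (95% interval 1.23 to 1.82), which did not hold without butyrate 1 (0.0512), butyrate 2 (0.074) or control 1 (0.0607). Pentanoate gave 0.21 against control (95% interval −0.07 to 0.50, adjusted p = 0.489) and −0.37 against butyrate (95% interval −0.65 to −0.09, adjusted p = 0.156).

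Sesn1 (ENSMUSG00000038332, chromosome 10, 41809935 to 41908424, plus strand) had 61.4, 46.7 and 59.4 CPM with pentanoate, 52.2, 39.9 and 46.2 CPM with butyrate and 71.2, 52.5 and 69.7 CPM in control. Library 2 was the lowest in each group, and the highest butyrate library was just below the lowest control. The estimate for butyrate against control was −0.48 (SE 0.15, 95% interval −0.82 to −0.15), which did not pass the test (adjusted p = 0.0684). With the replicate block Sesn1 fell by 0.48 and passed (adjusted p = 0.00205), as it did by DESeq2 (0.0401), with no filter (0.0145) and without control 2 (−0.60, adjusted p = 0.0229). Within the replicate numbers the differences were −0.45, −0.39 and −0.59 log2 CPM. Pentanoate cells stood 0.28 above butyrate cells (95% interval −0.06 to 0.61, adjusted p = 0.396, and 0.048 with the block) and −0.21 from control (95% interval −0.54 to 0.13, adjusted p = 0.559). Of the other sestrin, Sesn3, the level was 73.3 ± 15.0 CPM with pentanoate, 73.1 ± 11.2 with butyrate and 83.9 ± 16.2 in control (SD, n = 3 each), and no comparison was called.

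Of the 3 genes that promote cell death, none was called in any comparison by edgeR on all 9 libraries without the block. Bax (ENSMUSG00000003873, chromosome 7, 45461697 to 45466898, minus strand), which permeabilises the outer mitochondrial membrane in apoptosis, had 79.1, 90.1 and 86.6 CPM with pentanoate, 98.2, 114 and 101 CPM with butyrate and 79.0, 95.4 and 57.9 CPM in control. The butyrate libraries were above all other libraries, and control 3 was far below the other controls. Bax stood at 0.43 with butyrate (95% interval 0.09 to 0.77, adjusted p = 0.10), and it was called with the block (0.45, adjusted p = 0.027) and without control 2 (0.62, adjusted p = 0.0188). Between the acids it stood at −0.29 (95% interval −0.63 to 0.05, adjusted p = 0.367, and 0.046 with the 2 groups alone). Bbc3 (ENSMUSG00000002083, chromosome 7, 16308393 to 16318205, plus strand), which encodes the BH3-only protein PUMA, ranged over 7.89 to 8.43 CPM with pentanoate, 5.54 to 7.70 with butyrate and 4.73 to 9.89 in control. Its log2 change was −0.19 with butyrate (95% interval −0.73 to 0.36) and 0.05 with pentanoate (95% interval −0.49 to 0.59), and 0.24 for pentanoate against butyrate (95% interval −0.31 to 0.78). Phlda3 (ENSMUSG00000041801, chromosome 1, 135766119 to 135769136, plus strand), a pleckstrin homology protein that represses the survival kinase AKT, ranged over 213 to 250 CPM with pentanoate, 210 to 269 with butyrate and 131 to 228 in control. The estimate was 0.33 with butyrate (95% interval −0.06 to 0.73, adjusted p = 0.274) and 0.26 with pentanoate (95% interval −0.14 to 0.65, adjusted p = 0.541), and between the acids −0.08 (95% interval −0.47 to 0.32).

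Zmat3 and Trp53inp1 complete the set. Zmat3 (ENSMUSG00000027663, chromosome 3, 32334792 to 32366014, minus strand), a zinc finger protein that binds RNA, ranged over 91.9 to 106 CPM with pentanoate, 97.6 to 128 with butyrate and 82.7 to 98.9 in control. Its change with butyrate was 0.34 (95% interval 0.08 to 0.59, adjusted p = 0.0905), and with the block it rose by 0.33 (adjusted p = 0.0166), as it did by DESeq2 (0.0443) and with upper-quartile scaling (0.0444). Between the acids the Zmat3 estimate was −0.22 (95% interval −0.47 to 0.04). Trp53inp1 (ENSMUSG00000028211, chromosome 4, 11156431 to 11174379, plus strand), a nuclear cofactor of p53 that also acts in autophagy, ranged over 22.7 to 33.6 CPM with pentanoate, 33.7 to 46.2 with butyrate and 28.9 to 52.2 in control. The butyrate libraries lay above all pentanoate libraries, and the estimate between the acids was −0.49 (95% interval −0.97 to −0.01, adjusted p = 0.274). Against control the estimates were −0.45 with pentanoate (95% interval −0.93 to 0.03) and 0.04 with butyrate (95% interval −0.44 to 0.52).

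Counting libraries alone, 5 of the 10 genes with butyrate were above all controls and 1 (Sesn1) below, where 29.1% of all genes tested had no overlap, 14.1% higher and 14.9% lower. With pentanoate 1 gene (Gdf15) was above and 1 (Mdm2) below all controls, where the share over all genes was 18.5%, with 9.38% higher and 9.12% lower. Between the acids 5 genes were lower and 1 (Bbc3) higher with pentanoate without overlap, where the share was 30.8%, with 15.7% higher and 15.1% lower. The count of pentanoate against control is close to its background. With the replicate block 6 of the 10 were higher and 1 lower with butyrate, none was called with pentanoate, and 3 were lower and 1 higher with pentanoate than with butyrate. Calls over all genes also rose with the block, to 20.7% with butyrate, 3.65% with pentanoate and 10.5% between the acids.

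For 6 of the 10 genes control 3 lay well apart from the other controls, and not always in the same direction. Against the mean of controls 1 and 2, control 3 was higher for Trp53inp1 (0.73 log2 CPM) and Ccng1 (0.60) and lower for Bbc3 (−0.97), Phlda3 (−0.73), Gdf15 (−0.65) and Bax (−0.58). For Mdm2, Sesn2 and Zmat3 it was within 0.03 of them, and for Sesn1 it was 0.19 higher. The GC content of the longest transcript was 38.8% and 40.8% in the genes that were higher in control 3 and 61.3% to 65.2% in the 4 that were lower. Sesn2, at 58.7%, showed a difference of 0, and Mdm2, Zmat3 and Sesn1 were at 46.2%, 47.6% and 49.8%. Over all tested genes with a transcript sequence, the median of the same difference was 0.44 in the lowest of 5 equal classes of GC content and −0.35 in the highest, whose median GC content was 57.8%. The part of GC content in the comparisons with control was not tested. Without control 3, the 4 genes called with butyrate were Ccng1, Mdm2, Sesn2 and Gdf15, the same as with it, and none was called with pentanoate. The estimates for butyrate against control were then 1.04 for Ccng1, 0.49 for Mdm2, 0.59 for Sesn2 and 1.18 for Gdf15. They were 0.27 for Bax, 0.14 for Phlda3, −0.43 for Bbc3 and 0.34 for Trp53inp1, and none of these 4 passed the test.

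**Figure D3:**
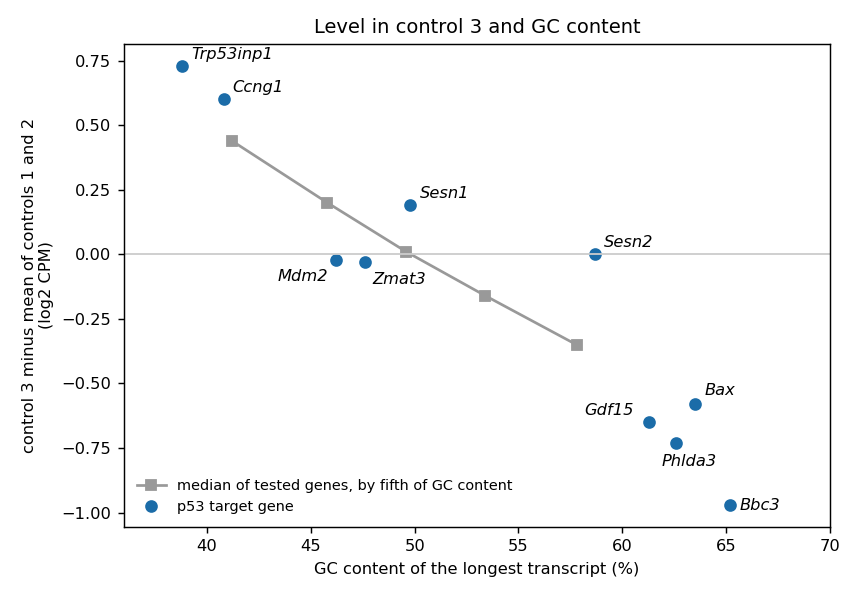
Difference of control library 3 from the mean of controls 1 and 2 (log2 CPM, vertical axis) against the GC content of the longest transcript (horizontal axis) for the 10 targets (circles) and for the median of all tested genes in 5 equal classes of GC content (squares). Trp53inp1 and Ccng1, of low GC content, lie above 0, and Bax, Gdf15, Phlda3 and Bbc3, of high GC content, below.

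The mean of the centred log2 levels of the 10 genes was −0.09, −0.10 and −0.10 with pentanoate (libraries 1 to 3), 0.27, 0.35 and 0.11 with butyrate and −0.14, −0.05 and −0.24 in control. Over the 9 libraries, the 3 genes outside the set that came nearest to this mean profile, among 12722 with a mean of at least 1 CPM, were Rnf145, Got2 and Ssfa2, with root mean square differences of 0.0498, 0.052 and 0.0541 log2 units. The members themselves lay between 0.0964 (Zmat3) and 0.457 (Gdf15) from it, so the profile describes Zmat3, Sesn2 (0.124) and Mdm2 (0.127) better than Gdf15, Sesn1 (0.426) or Ccng1 (0.37).

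Trp53 itself, the gene of p53, was at 146 ± 10.2 CPM with pentanoate, 161 ± 13.9 with butyrate and 148 ± 17.0 in control (SD, n = 3 each). Its log2 change was −0.02 with pentanoate (95% interval −0.26 to 0.22) and 0.12 with butyrate (95% interval −0.12 to 0.35), neither called. Mdm4, the partner of Mdm2 that inhibits p53, stood at 121 ± 9.56, 125 ± 17.3 and 117 ± 14.0 CPM in the same 3 groups. Cdkn2a, whose product ARF restrains Mdm2, had no count in any of the 9 libraries. Of 20 genes for p53 and its regulators 18 were tested, with a median log2 change of 0 with butyrate. In that comparison 1 was called, where 11.4% of all genes were called. The called gene was Pml, the scaffold of a nuclear body that acts on p53, with a log2 change of 0.38 (SE 0.10, adjusted p = 0.041). Its call was lost in 7 of the 9 fits that left out a library (highest adjusted p 0.171, without butyrate 2) and with the 2 groups alone (0.0926). With the block 2 of the list were higher with butyrate, and without control 2 there were 1 higher and 1 lower. Over all genes 20.7% and 12.3% were called in these fits. With pentanoate 0 of the 18 were called against control by edgeR and 1 had an unadjusted p under 0.05. Between the acids 0 were called, and 1 had such a p. Over all 14066 genes tested, 1095 were higher and 837 lower at such a p with pentanoate, and 1311 and 1146 between the acids. The block called 1 of the list between the acids, where 10.5% of all genes were called. DESeq2 called 0 in both comparisons.

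Among 38 other known p53 targets, 36 were tested, and with butyrate 7 rose and none fell. Over all genes tested, 6.43% were higher and 4.95% lower. The median log2 change of the 36 was 0.29, against −0.02 over all genes. Cdkn1a, the p21 inhibitor of cyclin-dependent kinases, reached 256 ± 54.0 CPM with butyrate, against 150 ± 36.9 CPM in control (0.77, SE 0.19, adjusted p = 0.0277). The Cdkn1a call did not hold without butyrate 1 (0.0583) or butyrate 2 (0.125), with no filter (0.0826) or with the 2 groups alone (0.067). Plk2, a polo-like kinase, averaged 141 ± 38.6 CPM with butyrate and 76.9 ± 6.46 CPM in control (0.88, SE 0.17, adjusted p = 0.00827). Ephx1, the microsomal epoxide hydrolase, rose by 0.56 (SE 0.10, adjusted p = 0.00527), and Ptp4a3, a tyrosine phosphatase, by 0.72 (SE 0.14, adjusted p = 0.00813). At an unadjusted p under 0.05, 18 of the 36 were higher with butyrate and 2 lower. The lower 2, named after their values were seen, were Gadd45a (−1, adjusted p = 0.119) and Steap3 (−0.25, adjusted p = 0.162). Over all genes 1752 were higher and 1903 lower at such a p. With the block 13 of this list rose and 2 fell, without control 3 the counts were 11 and 1, and without butyrate 2 they were 3 and 0. Over all genes 20.7%, 15.9% and 5.23% were called in these fits.

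In pentanoate cells 0 of these 36 genes were called against control by edgeR, where 0.803% of all genes were called, and the median was 0.06. At an unadjusted p under 0.05, 6 had a higher and 2 a lower level. Over all 14066 genes tested, 1095 were higher and 837 lower at such a p. DESeq2 called 1 of the 36 higher and the block 2 higher, where 2.58% and 3.65% of all genes were called. Cdkn1a was at 155 ± 16.7 CPM with pentanoate, 0.05 from control (95% interval −0.38 to 0.47). Pmaip1, which encodes the BH3-only protein NOXA, was at 5.62 ± 1.05 CPM with pentanoate, 5.39 ± 0.683 with butyrate and 3.75 ± 0.629 in control, with estimates of 0.59 (adjusted p = 0.261) and 0.52 (adjusted p = 0.138) against control for the 2 acids.

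Between the acids 2 of the 36 other targets were lower with pentanoate and none higher, where 1.61% of all genes were lower and 1.81% higher. The median of the 36 was −0.25, against 0 over all genes. Plk2 averaged 70.6 ± 7.49 CPM with pentanoate and 141 ± 38.6 CPM with butyrate (−1, SE 0.17, adjusted p = 0.013), a call lost without pentanoate 1 (0.0705) or pentanoate 3 (0.0603). Fas, a death receptor, averaged 3.14 ± 0.462 CPM with pentanoate and 6.50 ± 0.842 CPM with butyrate (−1.05, SE 0.21, adjusted p = 0.024), a call lost without any of the 6 libraries compared (0.055 to 0.109). Cdkn1a stood at −0.72 (95% interval −1.15 to −0.30, adjusted p = 0.0698) and passed with the block (−0.71, adjusted p = 0.00281). With the block 12 of the list were lower and 2 higher, and without control 3, which enters only through the shared spread and scale, 9 and 1, where 10.5% and 10.2% of all genes were called.

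**Figure D4:**
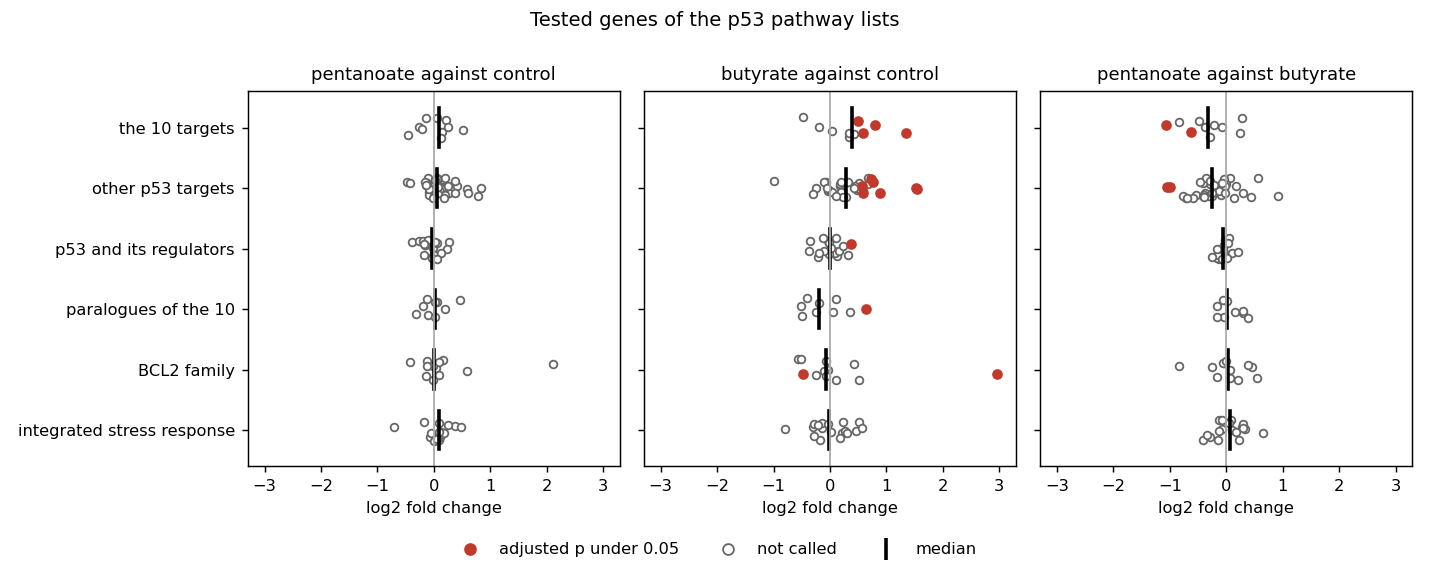
Log2 fold changes (horizontal axis) of every tested gene of the p53 lists, a point per gene and a bar at the median, in the 3 comparisons. The 10 targets and the other p53 targets have medians of 0.38 and 0.29 with butyrate against control and −0.33 and −0.25 for pentanoate against butyrate, while the other lists lie between −0.20 and 0.10 in all comparisons. The 10 targets and the lists were chosen with earlier results of these data known.

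Genes related to the 10 by family were set beside them. Of 13 relatives 9 were tested, with a median of −0.20 for butyrate against control. In that comparison 1 was called, where 11.4% of all genes were called. It was Gdf11, a growth factor related to Gdf15, at 0.63 (SE 0.15, adjusted p = 0.0215). It did not pass without butyrate 2 (0.0899) or butyrate 3 (0.0753), or with the 2 groups alone (0.0633). Ccng2, the other G-type cyclin and a FoxO target, averaged 53.3 ± 8.57 CPM with pentanoate, 47.5 ± 7.33 with butyrate and 66.8 ± 9.88 in control. Its change with butyrate was −0.49 (adjusted p = 0.0757), where Ccng1 rose, and with the block it fell with butyrate (−0.49, adjusted p = 0.00166) and with pentanoate (−0.33, adjusted p = 0.0446). With butyrate Ccng2 was also called lower by DESeq2 (0.0461), with no filter (0.0172) and without control 2 (0.0355). Trp53inp2, the relative of Trp53inp1, was at −0.41 with butyrate (adjusted p = 0.0883, 0.00774 with the block and 0.0308 with no filter). Phlda1 was at −0.25 (adjusted p = 0.575). Both with the block and with no filter 1 relative was higher and 2 lower with butyrate, where 20.7% and 6.44% of all genes were called. With the 2 groups alone 0 were called, where 7.34% of all genes were called. With pentanoate 0 of the 9 relatives were called against control by edgeR or DESeq2 (1 had an unadjusted p under 0.05). Between the acids 0 were called by either, with 0 at an unadjusted p under 0.05. Over all 14066 genes tested, 1095 were higher and 837 lower at such a p with pentanoate, and 1311 and 1146 between the acids.

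In the BCL2 family, which decides on mitochondrial apoptosis, 12 of 15 genes were tested. With butyrate 1 rose and 1 fell, where 6.43% of all genes were higher and 4.95% lower, and the median of the family was −0.07. The antiapoptotic Bcl2 averaged 10.3 ± 0.785 CPM with butyrate and 14.3 ± 1.28 CPM in control (−0.48, SE 0.13, adjusted p = 0.0348), a call lost in each of the 9 fits that left out a library (0.0544 to 0.146), with upper-quartile scaling (0.0566), with no filter (0.0756) and with the 2 groups alone (0.0932). Bik, a BH3-only gene named after its values were seen, averaged 0.97 ± 0.738 CPM with butyrate and 0.117 ± 0.0551 CPM in control (adjusted p = 0.037), and its call was lost in 6 of those 9 fits. The effector Bak1 was at −0.03, the antiapoptotic Bcl2l1 at 0.42 and Mcl1 at −0.08, none called. With the block 2 of the family rose and 3 fell, Bcl2l1 among those that rose (0.44, adjusted p = 0.0471), where 20.7% of all genes were called. With pentanoate 0 were called against control by edgeR or DESeq2 (2 at an unadjusted p under 0.05). Between the acids 0 were called by edgeR (2 at an unadjusted p under 0.05). Over all 14066 genes tested, 1095 were higher and 837 lower at such a p with pentanoate, and 1311 and 1146 between the acids. DESeq2 called 2 of the family higher between the acids, Bcl2 among them, where it called 6.76% of all genes. By edgeR Bcl2 was 0.46 higher with pentanoate than with butyrate (adjusted p = 0.0759, and 0.0398 with the block).

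Genes of the integrated stress response, the pathway through which ATF4 raises Sesn2 and Gdf15, formed a list of 20, of which 18 were tested. With butyrate 0 were called by edgeR, where 11.4% of all genes were called, and the median was −0.01. At an unadjusted p under 0.05, 3 had a higher level and 0 a lower. Over all 14066 genes tested, 1752 were higher and 1903 lower at such a p. DESeq2 called 2 of the list higher, where it called 14.5% of all genes. With the block 4 rose and 1 fell, and without control 3 these counts were 2 and 1, where 20.7% and 15.9% of all genes were called. Atf4 averaged 427 ± 34.2 CPM with pentanoate, 365 ± 22.0 with butyrate and 402 ± 68.2 in control, and its change with butyrate was −0.14 (95% interval −0.41 to 0.14). Ddit3, which encodes CHOP, was at 18.2 ± 2.55, 17.2 ± 2.82 and 19 ± 3.99 CPM in the same groups, a change of −0.14 with butyrate (95% interval −0.55 to 0.26). With pentanoate 0 of the 18 were called against control by edgeR or DESeq2, and 0 had an unadjusted p under 0.05. Between the acids 0 were called by edgeR or DESeq2, and 5 had an unadjusted p under 0.05, 3 higher and 2 lower. Over all genes 1311 were higher and 1146 lower at such a p. With the block 1 was higher and 2 lower, and both with the 2 groups alone and without control 3 the counts were 2 and 1, where 10.5%, 9.89% and 10.2% of all genes were called.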

How the data were processed

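RNA was measured in 9 libraries of C2C12 cells, 3 in each of the 3 groups, made per the labels' protocols with a SMARTER mRNA kit from Trizol RNA. The authors deposited a table of raw counts per gene with symbols, coordinates and gene lengths, and per the submitters' processing notes the build was GRCm38 (mm10). For the aligner, the counter and the strand setting, nothing is given in the sources used here. Genes that overlap a member in the table (Gm45808 with Bax, 9930024M15Rik with Sesn1, Gm12981 with Sesn2) had 0 to 6 counts per library.

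Counts were filtered with filterByExpr and scaled by TMM. They were tested with edgeR 4.0.16 in R 4.3.3 (glmQLFit, robust; glmQLFTest), with all 9 libraries and the group as the factor. P-values were adjusted by Benjamini-Hochberg over the 14066 genes within each comparison, and a gene was called under 0.05. The standard error is the log2 change over the square root of F, and 95% intervals use it with the t distribution, so both are approximate. CPM uses TMM-scaled totals, and log2 CPM a prior count of 2. DESeq2 1.42.0 was an alternative. Depth was 15829262 to 19305981 counts.

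The members and lists were chosen with earlier results of these data known. Genes named beside the members are the 3 of smallest p among the called genes of each list, of at least 1 CPM on average, and 14 genes set by name. Further genes, Bik, Fabp4, Gadd45a and Steap3 among them, were named after their values were seen. Mdm4, Pmaip1 and Ddit4 each stand in 2 lists. Of the 2 table lines with the symbol Ddit3, the 1 with counts was used. Deviations from the group means correlated at 0.20 to 0.41 in the 9 same-numbered pairs of libraries. In the 18 other pairs they correlated at −0.33 to 0.013. Deviations within a group cancel out, so these lower values are not independent of those of the same-numbered pairs. The main fit used the group alone and did not pair the libraries. A fit with the replicate numbers as a block is given as an alternative beside many of the calls that it changes.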

Additional observations from a re-analysis of the deposited data

How the results depend on the processing

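The count of p53 targets called with butyrate against control was 4 as reported and 7 with the replicate block (11.4% and 20.7% of all genes). It was 2 to 6 when a library was left out (2 without butyrate 2, 6 without control 2, where 5.23% and 12.3% of all genes were called). For pentanoate against butyrate the count was 2 as reported, 4 with the block and 4 with only the 2 groups compared. In these fits 3.42%, 10.5% and 9.89% of all genes were called. With a library left out the count between the acids was 1 to 3, where 0.523% to 10.2% of all genes were called. For pentanoate against control the count was 0 under every alternative run, where 0.183% to 3.65% of all genes were called. Over all genes, pentanoate against control gave 113 calls, 278 with no filter, 514 with the block, 25 with only the 2 groups compared, 363 with DESeq2 and 27 to 139 with a library left out. Butyrate against control gave 1601, 1023 when a mean of 5 CPM was required, 2916 with the block, 1004 with only the 2 groups and 753 to 2285. Pentanoate against butyrate gave 481, 319 under that requirement, 1483 with the block, 1365 with only the 2 groups, 951 with DESeq2 and 75 to 1469. Of the calls with butyrate, 68.8% were higher with upper-quartile scaling, against 56.5% as reported, and between the acids 41.1% against 53%. No scaling changed the direction of a called member, and no called value of the genes named here changed sign under any alternative that gave it a value. Among the members not called, Trp53inp1 and Bbc3 changed sign under some alternatives with butyrate, and Bbc3 and Bax with pentanoate. The cause of these shifts was not tested. The labels do not say what a replicate number stands for. Bbc3 had 73 to 177 counts per library and Gdf15 106 to 530, which limits the precision of their values.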
